A study of Homo sapiens with 6 samples.

Results

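The genes described here encode the vacuolar proton pump (V-ATPase) and the nutrient-sensing machinery that docks on the lysosome beside it, the Ragulator, the Rag GTPases and mTORC1 with its regulators. They were taken from the table by name, and the names were chosen with earlier results of these data known. The rule took every gene whose symbol begins with ATP6V0, ATP6V1, ATP6AP, LAMTOR or RRAG, with pseudogenes and -AS transcripts left out. It also took MTOR, RPTOR, MLST8, RHEB, TSC1, TSC2, TFEB, TFE3, MITF, FLCN and DEPTOR. The rule gave 47 of 31853 genes, of which 42 encode parts of this machinery and 5 are neighbouring or readthrough transcripts that carry one of the names. RNA was sequenced from Mon-Mac-6, an established human monocytic leukaemia cell line, after 48 h with 500 nM WD6305 (3 libraries) or after 48 h with the vehicle DMSO (3 libraries). The series title describes WD6305 as a PROTAC against METTL3, the enzyme that writes N6-methyladenosine on RNA, and a PROTAC acts by having its target protein degraded. The labels do not say whether the replicate libraries were grown apart, and p-values here measure only the spread between these libraries, which may be technical. The cells are of 1 line and the data hold RNA levels alone, with no measure of protein, of lysosomal acidity or of mTORC1 activity.

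The V-ATPase acidifies lysosomes, endosomes and phagosomes: its peripheral V1 domain hydrolyses ATP, which turns a rotor in the membrane-embedded V0 domain and carries protons across. The Ragulator anchors Rag GTPases to the lysosomal surface, where a RagA or RagB paired with a RagC or RagD recruits mTORC1 when amino acids are plentiful, and RHEB, which is restrained by the TSC complex, then switches the kinase on. mTORC1 in turn keeps the transcription factors TFEB, TFE3 and MITF out of the nucleus, and these factors drive lysosomal genes, many V-ATPase subunits included. In monocytes and macrophages the pump serves digestion in phagosomes and lysosomes.

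Deposited counts summed to between 64525948 and 71155346 per library. METTL3 RNA stood at 12.47, 12.19 and 12.65 FPKM in WD6305 1, 2 and 3, against 11.29, 10.50 and 10.94 FPKM in DMSO 1, 2 and 3, which is no check of the labels because the compound acts on the protein. All 10 markers listed as monocytic were present, 7 of them higher and 2 lower with WD6305 (edgeR, adjusted p under 0.05), beside 12.2% and 11.2% of all tested genes. The lower ones were CD14 and MPO (log2 fold changes -0.37 and -0.35, edgeR adjusted p = 0.0123 and 0.0226), and FCGR2A did not pass. The summed level of the markers, mostly LYZ and ELANE, was 8138 to 8961 FPKM with WD6305 against 4741 to 4962 FPKM with DMSO. The shift in the sum came mostly from LYZ and ELANE and is no measure of how monocytic the cells were. The part of this shift in the results was not tested, and in bulk RNA fewer cells that make a transcript and less RNA per cell cannot be told apart. Keratinocyte markers (7 of 8 in the table, with KRT2 at 0 throughout) summed to 2.78 FPKM in WD6305 1 and 2.98 FPKM in DMSO 3, against 49.0 and 49.8 FPKM in the other WD6305 libraries and 58.9 and 54.1 FPKM in the other DMSO libraries. WD6305 1 and DMSO 3 therefore stood apart, and values without both are given where they alter a call.

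Of the 46 genes that could be tested, 8 were higher and 7 lower with WD6305, and 31 did not pass the test (edgeR quasi-likelihood test, Benjamini-Hochberg adjusted p under 0.05 over all 18138 tested genes). That is 32.6% of the set, beside 23.4% of all tested genes, with 17.4% higher beside 12.2% and 15.2% lower beside 11.2%. Most of these genes are well expressed, and well-expressed genes were called more often: among those with a mean of at least 1 FPKM (fragments per unit of transcript length and of library size), 39.5% of the 38 genes of the set were called, beside 33.8% of 10986 genes, with 21.1% higher beside 17.8% and 18.4% lower beside 16.1%. The median log2 fold change was 0.10 in the set and 0.00 over all tested genes. Changes were modest, with a median absolute log2 fold change of 0.37 among the 15 called genes beside 0.42 among all 4249 called genes, and 0 of the 15 changed by 2-fold or more. In FPKM the groups did not overlap for 23 of 46 genes, or 50%, beside 39.7% of all tested genes. WD6305 lay above for 23.9% beside 18.1%, and below for 26.1% beside 21.6%.

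The calls in each part of the machinery were few, and no difference between parts was tested. Both accessory subunits and the Rag partners RagC and RagD were higher with WD6305, along with 1 Ragulator subunit, while mTORC1 subunits RPTOR and MLST8 and the activator RHEB were lower. Within the pump itself 2 V0 genes were higher and 2 lower, and of 11 tested V1 genes 1 was lower and 0 were higher. Over the 19 tested V0 and V1 genes that is 10.5% higher and 15.8% lower, beside 12.2% and 11.2% of all tested genes. Among all genes at a mean of at least 1 FPKM the shares were 17.8% and 16.1%. The count of lower genes was the less stable: it was 3, 2 and 3 without WD6305 1, 2 or 3, and 4 and 2 without DMSO 1 or 2, and 10 without DMSO 3, whereas the count of higher genes was 6 or 7 whichever library was left out.

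**Figure D1:**
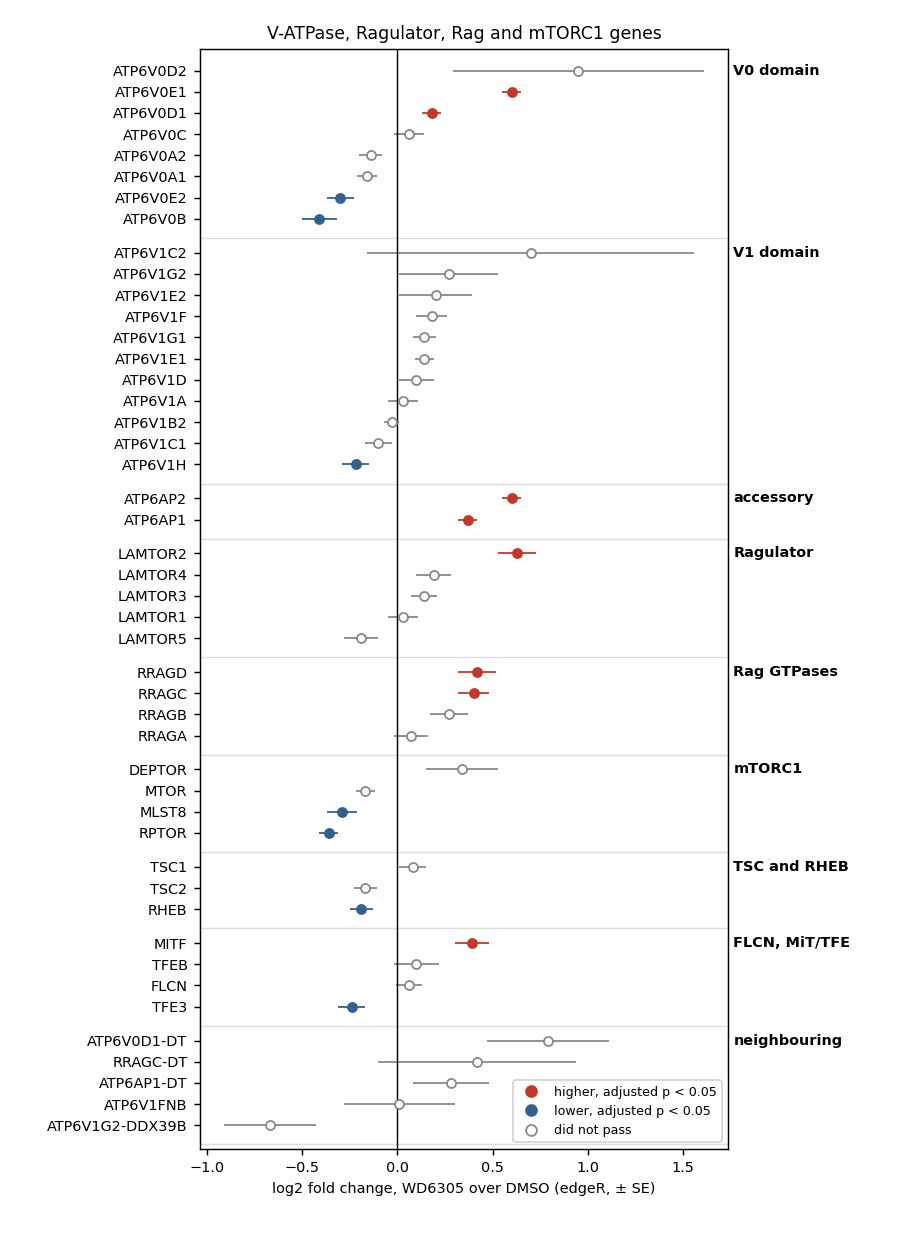
Log2 fold change (WD6305 over DMSO, x axis) of the 46 tested genes, grouped by role, with bars of 1 SE from edgeR and filled points for adjusted p under 0.05. The 8 higher genes lie between 0.18 and 0.63 and the 7 lower genes between -0.41 and -0.19.

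Promoter sequence was examined because TFEB, TFE3 and MITF, all of them in the set, are known to bind sites built on the letters CACGTG, which MYC and other factors bind too. RefSeq windows (GRCh38.p14) of 300 bases, from 250 before to 50 after a gene's start, were available for 35 of the 47 genes. The called genes RRAGD, ATP6V0E1, ATP6V1H and MLST8 had no window, so their promoters were not examined. CACGTG, which reads the same on both strands, was present in windows of 11 of these 35 genes (31.4%), and among the 34 that were also tested the share was 32.4%, beside 12.3% of the 11672 tested genes with a window. Over all windows in the table the share was 25.0% of 48 windows of the set and 7.26% of 35116. Every one of the 12 distinct sites in the set had a T before it or an A after it, or both, making TCACGTG on at least 1 of the strands, a longer form that contains the shorter one and was held by 3.71% of all windows. The 11 genes were 2 of 6 genes with a window that were higher with WD6305 (RRAGC and ATP6V0D1) and 2 of 5 that were lower (ATP6V0B and ATP6V0E2). The others were 7 of 23 that did not pass (ATP6V1G1, LAMTOR1, LAMTOR4, RRAGB, TSC2 and the divergent transcripts RRAGC-DT and ATP6V0D1-DT, which share the site of their partner). The 250 bases before the start are shown for the 4 called genes, since they hold the same letters and moved in both directions, with CACGTG in capitals. RRAGC lies at chr1:38859773-38860022 on the minus strand, ATP6V0D1 at chr16:67481158-67481407 on the minus strand, ATP6V0B at chr1:43974710-43974959 on the plus strand and ATP6V0E2 at chr7:149872718-149872967 on the plus strand. The ATP6V0B stretch lies inside the span that the gene table gives, because RefSeq places a start further along.
RRAGC: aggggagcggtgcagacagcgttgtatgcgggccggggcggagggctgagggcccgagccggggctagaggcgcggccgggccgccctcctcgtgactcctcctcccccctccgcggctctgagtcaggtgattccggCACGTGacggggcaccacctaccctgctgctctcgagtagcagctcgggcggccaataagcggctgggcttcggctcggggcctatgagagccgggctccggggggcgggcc
ATP6V0D1: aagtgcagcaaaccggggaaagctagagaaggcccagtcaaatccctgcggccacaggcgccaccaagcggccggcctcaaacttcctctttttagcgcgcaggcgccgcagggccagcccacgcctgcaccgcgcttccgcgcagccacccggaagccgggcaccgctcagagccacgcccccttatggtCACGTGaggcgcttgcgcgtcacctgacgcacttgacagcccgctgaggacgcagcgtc
ATP6V0B: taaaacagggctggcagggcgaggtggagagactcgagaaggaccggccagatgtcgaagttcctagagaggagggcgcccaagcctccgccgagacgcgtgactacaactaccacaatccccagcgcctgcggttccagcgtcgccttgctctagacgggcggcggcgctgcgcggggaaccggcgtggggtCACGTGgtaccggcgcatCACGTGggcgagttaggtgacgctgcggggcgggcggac
ATP6V0E2: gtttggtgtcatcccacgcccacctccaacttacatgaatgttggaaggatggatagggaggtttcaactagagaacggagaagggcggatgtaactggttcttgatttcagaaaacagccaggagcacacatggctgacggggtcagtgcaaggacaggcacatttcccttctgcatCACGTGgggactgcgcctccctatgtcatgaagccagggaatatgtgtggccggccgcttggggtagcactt
ATP6V0B carried 2 copies, 57 and 39 bases before the start, ATP6V0D1 had its copy 59 bases before, ATP6V0E2 had it 72 bases before and RRAGC 112 bases before. A match is a description of the letters and shows neither binding nor a cause of the changes.

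Both accessory subunits rose with WD6305. ATP6AP2, also called the prorenin receptor, helps the pump assemble and reach its membranes; its gene (ENSG00000182220) occupies bases 40579372 to 40606848 of chromosome X, plus strand (GRCh38). It measured 20.82, 22.37 and 20.26 FPKM in WD6305 1, 2 and 3, against 14.07, 14.24 and 14.24 FPKM in DMSO 1, 2 and 3. Every WD6305 library was above every DMSO library, by far more than the spread within a group. The fold was 1.52 (log2 fold change 0.60, SE 0.05, edgeR adjusted p = 9.23e-05). ATP6AP1, a glycoprotein that binds the V0 ring and takes part in its assembly, occupies bases 154428633 to 154436516 of the same chromosome, also on the plus strand (ENSG00000071553). Its levels were 75.19, 83.49 and 75.81 FPKM with WD6305 and 61.53, 63.35 and 59.66 FPKM with DMSO, so the groups did not overlap. The log2 fold change was 0.37 (SE 0.05, edgeR adjusted p = 0.00170). ATP6AP1-DT, a divergent non-coding transcript beside it, had 5.51 ± 0.755 FPKM with WD6305 and 4.59 ± 0.954 FPKM with DMSO (SD, n = 3 each) and did not pass (log2 fold change 0.28, edgeR adjusted p = 0.373).

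The membrane domain V0 moved in both directions. ATP6V0E1, the common form of the small e subunit, occupies bases 172983771 to 173035445 of chromosome 5, plus strand (ENSG00000113732). Its levels were 97.34, 98.97 and 96.58 FPKM in the WD6305 libraries, against 69.22, 64.73 and 62.69 FPKM in the DMSO libraries. The groups were far apart, with a log2 fold change of 0.60 (SE 0.05, edgeR adjusted p = 1.68e-04), or 1.51-fold. Its paralog ATP6V0E2 went the other way, at 3.65, 3.57 and 3.82 FPKM with WD6305 and 4.28, 4.82 and 4.77 FPKM with DMSO. It was lower in every WD6305 library (log2 fold change -0.30, SE 0.07, edgeR adjusted p = 0.0182). That call was lost without WD6305 1, WD6305 2 or DMSO 2 (edgeR adjusted p = 0.0594, 0.0680 and 0.0694) and without both WD6305 1 and DMSO 3 (0.0635). ATP6V0E2 overlaps 878 bases of the opposite-strand ATP6V0E2-AS1, which was lower too (log2 fold change -1.04, edgeR adjusted p = 0.00907), and although the library protocol marks the strand, the sources used here do not say whether counting used it.

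ATP6V0B encodes c″, a member of the proton-carrying ring, and occupies bases 43974487 to 43978295 of chromosome 1, plus strand (ENSG00000117410). It was read at 47.33, 58.25 and 55.24 FPKM with WD6305, against 78.84, 70.09 and 68.07 FPKM with DMSO. All WD6305 libraries were below all DMSO libraries, although WD6305 1 and DMSO 1 each stood away from their group. It gave the largest fall among the called genes of the set, with a log2 fold change of -0.41 (SE 0.09, edgeR adjusted p = 0.00957), or 1.33-fold lower. ATP6V0C, the main ring subunit c, had 194.54, 180.11 and 173.96 FPKM with WD6305 and 176.91, 196.54 and 160.65 FPKM with DMSO. These groups overlapped and no change was called (log2 fold change 0.06, SE 0.08, edgeR adjusted p = 0.644), and the reads of ATP6V0C may be shared with its processed pseudogene copies. ATP6V0D1, the d subunit that couples the ring to the central stalk, was at 10.83, 10.98 and 10.55 FPKM with WD6305, against 10.01, 9.68 and 9.34 FPKM with DMSO. The rise was small (log2 fold change 0.18, SE 0.05, edgeR adjusted p = 0.0343) and its call was lost when any library except DMSO 1 was left out (0.0602 to 0.117) and without both WD6305 1 and DMSO 3 (0.0937). ATP6V0D2, the d paralog of osteoclasts, was close to 0 in all libraries, with counts of 16, 19 and 27 under WD6305 and 13, 16 and 4 under DMSO (edgeR adjusted p = 0.357).

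The a subunit anchors the stator and comes in forms that steer the pump to different membranes. ATP6V0A1 had 7.03, 7.05 and 6.92 FPKM with WD6305 and 8.19, 8.14 and 7.58 FPKM with DMSO. The WD6305 values were all lower, but the gene missed the threshold (log2 fold change -0.16, SE 0.05, edgeR adjusted p = 0.0571), and it passed without DMSO 3 (0.0113) and without both WD6305 1 and DMSO 3 (0.0189). ATP6V0A2 measured 2.44, 2.43 and 2.35 FPKM with WD6305 and 2.57, 2.76 and 2.74 FPKM with DMSO (log2 fold change -0.14, edgeR adjusted p = 0.140). TCIRG1 encodes a3, the form of osteoclasts and phagocytes, and was looked at beside them though the naming rule does not take it. It rose, with 23.43, 23.89 and 21.83 FPKM under WD6305, against 17.35, 19.60 and 17.33 FPKM under DMSO (log2 fold change 0.37, SE 0.06, edgeR adjusted p = 0.00368). TCIRG1 was the most abundant a form in every library. Its share of the summed FPKM of these a genes was 71.2%, 71.6% and 70.2% with WD6305 and 61.7%, 64.3% and 62.7% with DMSO, while that of ATP6V0A1 was 21.1% to 22.3% with WD6305 and 26.7% to 29.1% with DMSO. ATP6V0A4 was not analysed here.

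**Figure D2:**
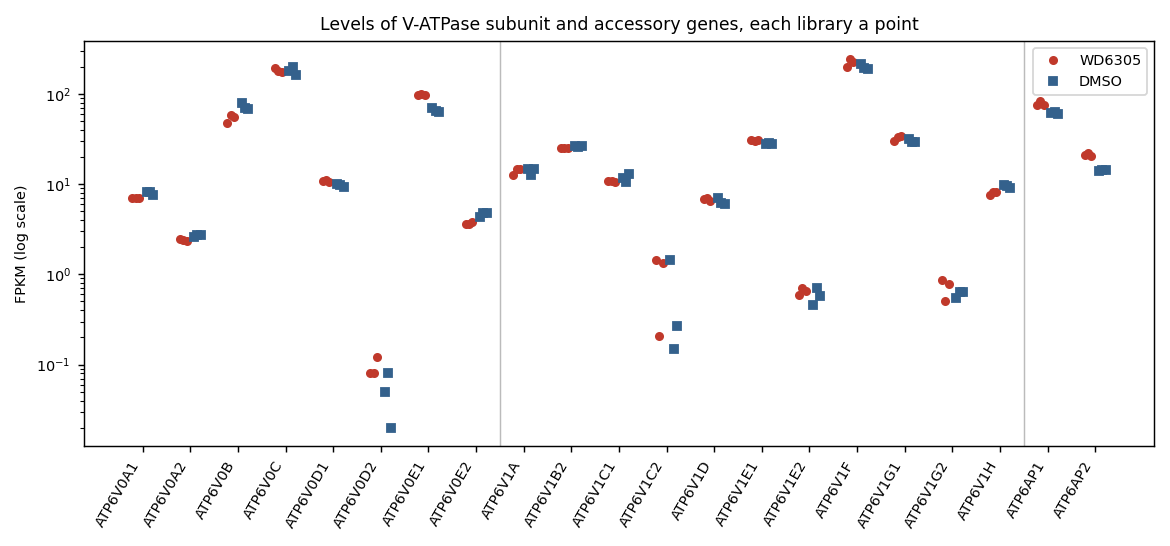
Level in FPKM (y axis, log scale) of the V0 genes (left), V1 genes (middle) and accessory genes (right), with WD6305 libraries as circles and DMSO libraries as squares. ATP6V1F and ATP6V0C are the most abundant in both groups, and ATP6V1B1, at 0.00 to 0.02 FPKM, is left off.

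In the catalytic domain V1, 1 of 11 tested genes was lower (9.09%, beside 11.2% of all tested genes) and 0 were higher. ATP6V1A and ATP6V1B2, whose products form the ATP-hydrolysing head, had 14.1 ± 1.20 and 25.1 ± 0.293 FPKM with WD6305, against 14.1 ± 1.24 and 26.0 ± 0.465 FPKM with DMSO (SD, n = 3 each). Neither passed (log2 fold changes 0.03 and -0.03, edgeR adjusted p = 0.871 and 0.684). The 1 gene called was ATP6V1H, the subunit that holds detached V1 inactive and bridges it to the stator. It stood at 7.55, 8.13 and 8.21 FPKM with WD6305, against 9.80, 9.40 and 9.16 FPKM with DMSO, without overlap. The log2 fold change was -0.22 (SE 0.07, edgeR adjusted p = 0.0432), and the call was lost when any library except DMSO 3 was left out (0.0862 to 0.128).

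Of the central and peripheral stalk genes of V1, 0 passed. ATP6V1F, the most abundant pump gene, was at 196.65, 242.02 and 223.74 FPKM with WD6305 and 212.84, 191.61 and 188.22 FPKM with DMSO, which overlapped (log2 fold change 0.18, SE 0.08, edgeR adjusted p = 0.146). ATP6V1E1 had 31.12, 29.87 and 30.42 FPKM with WD6305 and 27.90, 28.62 and 27.73 FPKM with DMSO, a gap without overlap that missed the threshold (log2 fold change 0.14, SE 0.05, edgeR adjusted p = 0.0583). ATP6V1G1, ATP6V1D and ATP6V1C1 had log2 fold changes of 0.14, 0.10 and -0.10 (edgeR adjusted p = 0.141, 0.454 and 0.388). The rarer paralogs were low: ATP6V1E2 averaged 0.650 ± 0.0600 FPKM with WD6305 and 0.577 ± 0.120 FPKM with DMSO, and ATP6V1G2 averaged 0.723 ± 0.189 and 0.603 ± 0.0551 FPKM in the same order (SD, n = 3 each). ATP6V1B1, the B form of kidney and other acid-secreting epithelia, had a count of 4 in WD6305 1 and 0 in the other libraries and was not tested. ATP6V1G3 was not analysed here.

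ATP6V1C2, an epithelial form of the C subunit, varied widely between libraries of the same group. It had counts of 350, 54 and 333 in WD6305 1, 2 and 3, against 382, 37 and 67 in DMSO 1, 2 and 3, so that a high and a low level occurred in both groups (log2 fold change 0.70, SE 0.86, edgeR adjusted p = 0.625). Leaving out 1 library at a time gave log2 fold changes from 0.23 without DMSO 2 to 2.29 without DMSO 1 (edgeR adjusted p = 0.0829), so the data do not settle whether its level differed with WD6305. Its share of the summed FPKM of ATP6V1C1 and ATP6V1C2 ranged from 1.90% to 11.9% with WD6305 and from 1.41% to 11.1% with DMSO. The high libraries were WD6305 1, which lacked the keratin transcripts, and WD6305 3 and DMSO 1, which held them. The gene overlaps 1720 bases of PDIA6, an abundant gene on the opposite strand at a mean of 178 FPKM, whose part in these values was not tested.

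Of 5 Ragulator genes, 1 was higher (20.0%, beside 12.2% of all tested genes) and 0 lower. LAMTOR2, also known as p14, forms a dimer with LAMTOR3 inside the complex and occupies bases 156054782 to 156058506 of chromosome 1, plus strand (ENSG00000116586). It was at 38.05, 44.77 and 44.36 FPKM with WD6305 and at 31.25, 24.43 and 27.95 FPKM with DMSO. WD6305 1 was the lowest of its group and DMSO 1 the highest of its own, and they did not meet. The fold of 1.54 was the largest among the called genes of the set (log2 fold change 0.63, SE 0.10, edgeR adjusted p = 0.00292). Its partner LAMTOR3 had 11.3 ± 0.139 FPKM with WD6305 and 10.4 ± 0.832 FPKM with DMSO (SD, n = 3 each; log2 fold change 0.14, edgeR adjusted p = 0.191). LAMTOR1, which carries the lipid anchor that holds the complex on the lysosome, had 25.0 ± 1.51 and 24.9 ± 1.88 FPKM in the same order (log2 fold change 0.03, edgeR adjusted p = 0.838). LAMTOR4 and LAMTOR5, which form another dimer, had log2 fold changes of 0.19 and -0.19 (edgeR adjusted p = 0.164 and 0.150). LAMTOR4 passed without DMSO 1 (0.0442).

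Among the Rag GTPases the C and D forms rose. RRAGC, at bases 38838198 to 38859772 of chromosome 1, minus strand (ENSG00000116954), had 7.32, 7.54 and 7.35 FPKM with WD6305, against 6.09, 5.77 and 5.27 FPKM with DMSO. The WD6305 libraries were tightly grouped above all DMSO libraries (log2 fold change 0.40, SE 0.08, edgeR adjusted p = 0.00696). RRAGD, which is known to be turned on by MiT/TFE factors, had 6.64, 5.15 and 5.85 FPKM with WD6305 and 4.32, 4.72 and 4.40 FPKM with DMSO. The groups did not overlap, although WD6305 2 came close to DMSO 2 (log2 fold change 0.42, SE 0.10, edgeR adjusted p = 0.0179). The call was lost without WD6305 1, WD6305 3 or DMSO 1 (0.0618, 0.0627 and 0.0615) and without both WD6305 1 and DMSO 3 (0.0759). RRAGA, the more abundant of the A and B forms, was at 18.21, 20.04 and 16.33 FPKM with WD6305 and 17.99, 18.08 and 16.85 FPKM with DMSO (log2 fold change 0.07, SE 0.09, edgeR adjusted p = 0.649). RRAGB was at 8.68, 10.50 and 8.65 FPKM with WD6305 and 7.02, 7.97 and 8.50 FPKM with DMSO (log2 fold change 0.27, SE 0.10, edgeR adjusted p = 0.0881). Shares within each pair overlapped between groups: RRAGC held 52.4% to 59.4% of the C and D sum with WD6305 and 54.5% to 58.5% with DMSO. RRAGC-DT, the divergent transcript, was at 0.277 ± 0.124 FPKM with WD6305 and 0.203 ± 0.115 FPKM with DMSO (SD, n = 3 each; edgeR adjusted p = 0.626).

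**Figure D3:**
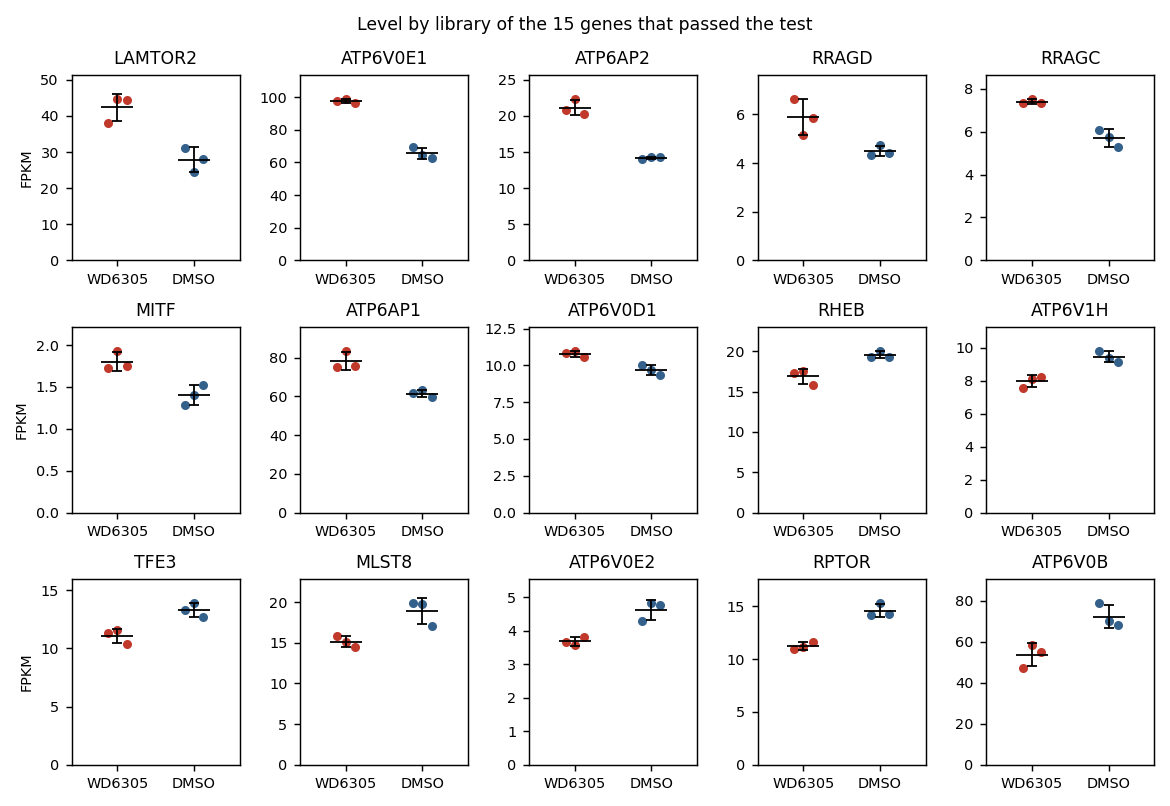
Level in FPKM of the 15 called genes in each library (points), with group mean and SD (black), WD6305 left of DMSO and each y axis from 0. Panels run from LAMTOR2 at a log2 fold change of 0.63 to ATP6V0B at -0.41, and no panel shows overlap between the groups.

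Of 4 mTORC1 subunit genes, 2 were lower (50.0%, beside 11.2% of all tested genes) and 0 higher, a share that rests on few genes. RPTOR encodes Raptor, the scaffold that binds substrates and the Rag GTPases, and occupies bases 80544819 to 80966371 of chromosome 17, plus strand (ENSG00000141564). It had 10.90, 11.09 and 11.61 FPKM with WD6305 and 14.16, 15.28 and 14.30 FPKM with DMSO. The distance between the groups was several times the spread within them (log2 fold change -0.36, SE 0.05, edgeR adjusted p = 0.00149). MLST8, a subunit shared with mTORC2 that binds the kinase domain, was at 15.88, 15.11 and 14.48 FPKM with WD6305, against 19.88, 19.74 and 17.02 FPKM with DMSO. DMSO 3 was the lowest of its group and still above all WD6305 libraries (log2 fold change -0.29, SE 0.08, edgeR adjusted p = 0.0240). Its call was lost without WD6305 2, WD6305 3, DMSO 1 or DMSO 2 (0.0794, 0.0996, 0.0827 and 0.0849).

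MTOR, the kinase itself, lay on the border. Its levels were 11.62, 11.53 and 11.81 FPKM with WD6305 and 12.21, 13.95 and 13.83 FPKM with DMSO, with no overlap (log2 fold change -0.17, SE 0.05). It missed the threshold at an edgeR adjusted p of 0.0506 and passed in 8 of 17 alternative settings, DESeq2 (0.0154) and edgeR without DMSO 1 (0.0148) among them. DEPTOR, an inhibitor found in both mTOR complexes, was low at 1.05, 1.30 and 0.97 FPKM with WD6305 and 0.77, 0.95 and 0.93 FPKM with DMSO (log2 fold change 0.34, SE 0.19, edgeR adjusted p = 0.235).

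RHEB, the small GTPase that activates mTORC1, was at 17.29, 17.55 and 15.79 FPKM with WD6305 and 19.34, 20.04 and 19.29 FPKM with DMSO. The WD6305 values were all lower (log2 fold change -0.19, SE 0.06, edgeR adjusted p = 0.0478), and the call was lost when any library except DMSO 3 was left out (0.0758 to 0.177). The genes of the TSC complex, which switches RHEB off, did not pass. TSC2 had 3.50, 3.37 and 3.43 FPKM with WD6305 and 3.75, 4.24 and 3.78 FPKM with DMSO (log2 fold change -0.17, SE 0.06, edgeR adjusted p = 0.0869), and it passed without DMSO 3 (0.0441). TSC1 had 2.17, 2.06 and 2.04 FPKM with WD6305 and 1.83, 2.11 and 2.09 FPKM with DMSO, which overlapped (log2 fold change 0.08, edgeR adjusted p = 0.499).

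The transcription factors downstream of mTORC1 parted. TFE3, the most abundant of them, had 11.30, 11.53 and 10.37 FPKM with WD6305 and 13.27, 13.87 and 12.69 FPKM with DMSO. All WD6305 values were lower (log2 fold change -0.24, SE 0.07, edgeR adjusted p = 0.0341), and the call was lost when any library except DMSO 3 was left out (0.0628 to 0.134). MITF, best known for its role in melanocytes, mast cells and osteoclasts, was at 1.73, 1.93 and 1.75 FPKM with WD6305 and at 1.28, 1.40 and 1.52 FPKM with DMSO. It rose without overlap (log2 fold change 0.39, SE 0.09, edgeR adjusted p = 0.0154), and the call was lost without WD6305 2, DMSO 1 or DMSO 2 (0.0635, 0.0616 and 0.0539). A gene-level value does not separate the promoter forms of MITF. TFEB, at 1.73, 2.40 and 1.94 FPKM with WD6305 and 1.81, 2.03 and 1.91 FPKM with DMSO, showed overlapping groups (log2 fold change 0.10, SE 0.12, edgeR adjusted p = 0.606). FLCN, the activator of RagC and RagD that is lost in Birt-Hogg-Dubé syndrome, had 2.00 ± 0.0656 FPKM with WD6305 and 1.95 ± 0.0643 FPKM with DMSO (SD, n = 3 each; log2 fold change 0.06, edgeR adjusted p = 0.590), and overlaps 5468 bases of MPRIP on the opposite strand.

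**Figure D4:**
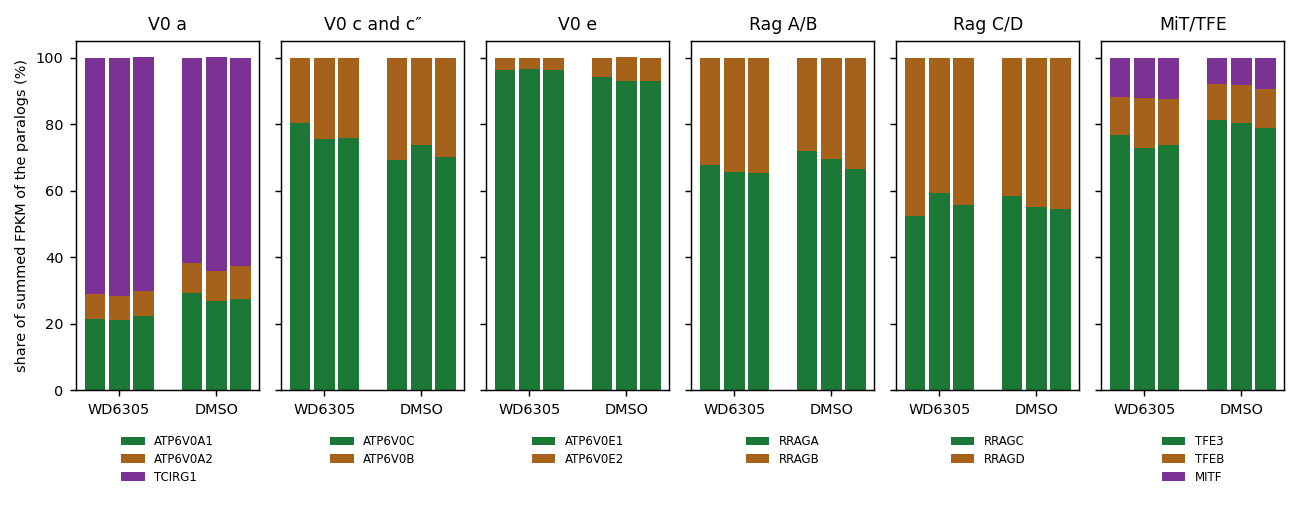
Share of the summed FPKM (y axis, %) held by each gene of 6 families, each bar a library, WD6305 bars left of DMSO bars. TCIRG1, ATP6V0C, ATP6V0E1 and MITF hold larger shares in every WD6305 library than in any DMSO library, and the Rag shares overlap.

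Some families had genes that moved unequally, and there the shares of most genes differed without overlap, which restates the levels above. ATP6V0E1 held 96.2% to 96.5% of the e subunit sum with WD6305 and 92.9% to 94.2% with DMSO. ATP6V0C held 75.6% to 80.4% of the c and c″ sum with WD6305 and 69.2% to 73.7% with DMSO. MITF held 11.7% to 12.4% of the sum of TFE3, TFEB and MITF with WD6305 and 7.82% to 9.43% with DMSO, with TFE3 at 72.7% to 76.6% and 78.7% to 81.1% in the same order. The TFEB share overlapped, at 11.7% to 15.1% with WD6305 and 11.1% to 11.8% with DMSO. Shares of this kind show unequal change within a family, and they are descriptions without a test.

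The remaining transcripts taken by name did not pass. ATP6V1G2-DDX39B, a readthrough that shares reads with both of its component genes, had 4.42, 6.22 and 4.60 FPKM with WD6305 and 8.47, 10.74 and 5.30 FPKM with DMSO (log2 fold change -0.67, SE 0.24, edgeR adjusted p = 0.0800). DMSO 3 lay among the WD6305 values, and the gene passed without it (0.00515) and without both WD6305 1 and DMSO 3 (0.0147). ATP6V0D1-DT was at 0.28 ± 0.10 FPKM with WD6305 and 0.157 ± 0.0208 FPKM with DMSO, and ATP6V1FNB, a neighbour of ATP6V1F, at 0.427 ± 0.129 and 0.430 ± 0.0917 FPKM in the same order (SD, n = 3 each; edgeR adjusted p = 0.109 and 0.993).

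Another 62 genes of the pump and of mTORC1 signalling, listed by role, gave 10 higher and 12 lower of 61 tested. That is 16.4% and 19.7%, beside the same 12.2% and 11.2% of all tested genes. Among all genes at a mean of at least 1 FPKM the shares were 17.8% and 16.1%. Of 12 factors that work on the V-ATPase, 5 were higher (41.7%) and 0 lower. ROGDI and DMXL2 belong to the rabconnectin (RAVE) complex, which puts V1 back on V0. ROGDI had 16.51, 17.75 and 16.96 FPKM with WD6305 and 10.44, 10.55 and 9.70 FPKM with DMSO, a clear separation (log2 fold change 0.76, SE 0.07, edgeR adjusted p = 1.52e-04). DMXL2 had 15.52, 14.69 and 15.24 FPKM with WD6305 and 7.39, 8.21 and 12.24 FPKM with DMSO, with DMSO 3 well above its group (log2 fold change 0.73, SE 0.15, edgeR adjusted p = 0.00823). OXR1 and NCOA7, whose TLDc domains bind V1, had log2 fold changes of 0.67 (SE 0.09) and 0.60 (SE 0.13) at edgeR adjusted p = 9.99e-04 and 0.0105, and TCIRG1 is given above. The rabconnectin members DMXL1 and WDR7 had values of 0.36 and 0.18 that did not pass (0.119 and 0.0646). DMXL1 had 2.07, 1.95 and 2.16 FPKM with WD6305 and 1.36, 1.43 and 2.12 FPKM with DMSO, with DMSO 3 again above its group. WDR7 was higher in every WD6305 library than in any DMSO library. The V0 assembly factors VMA21, TMEM199 and CCDC115 had -0.07, -0.03 and 0.19 (0.489, 0.855 and 0.142).

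Of 22 amino acid sensing genes, 3 were higher and 4 lower, or 13.6% and 18.2%, near the 12.2% and 11.2% of all tested genes and the 17.8% and 16.1% of those at a mean of at least 1 FPKM. SESN3, a sestrin of the family that restrains GATOR2, was at 4.12, 3.76 and 4.12 FPKM with WD6305, against 1.69, 1.83 and 2.45 FPKM with DMSO. That was the largest change in these lists (log2 fold change 1.03, SE 0.13, edgeR adjusted p = 6.74e-04). Its relatives SESN1 and SESN2 had -0.01 and -0.30 and did not pass (0.953 and 0.0808). FNIP2, the partner of FLCN, rose by 0.41 on the log2 scale (SE 0.09, edgeR adjusted p = 0.00926), while FNIP1 had 0.19 (0.165). GATOR2 subunits disagreed, with WDR24 higher (log2 fold change 0.34, edgeR adjusted p = 0.0316) and SEH1L and SEC13, which also serve in the nuclear pore, lower (-0.37 and -0.18, edgeR adjusted p = 0.00619 and 0.0383). NPRL3 of GATOR1 was lower as well (-0.41, edgeR adjusted p = 0.0231). WDR24 lost its call without WD6305 1, WD6305 3, DMSO 1 or DMSO 3 (0.109, 0.106, 0.0867 and 0.0616), and SEC13 when any library except DMSO 3 was left out (0.0516 to 0.142). NPRL3 lost it without WD6305 2, WD6305 3, DMSO 1 or DMSO 2 (0.0828, 0.0947, 0.0773 and 0.0872). Without both WD6305 1 and DMSO 3, WDR24 was at 0.142.

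Upstream of mTORC1, 2 of 10 tested genes were higher and 4 lower. That is 20.0% and 40.0%, beside 12.2% and 11.2% of all tested genes and 17.8% and 16.1% of those at a mean of at least 1 FPKM. PRKAA1, a catalytic subunit of the energy sensor AMPK, had 8.88 ± 0.159 FPKM with WD6305 and 5.40 ± 0.522 FPKM with DMSO (SD, n = 3 each), without overlap (log2 fold change 0.74, SE 0.07, edgeR adjusted p = 2.31e-04). DDIT4, also called REDD1 and a stress-induced inhibitor of mTORC1, was at 24.43, 32.54 and 29.03 FPKM with WD6305, against 48.85, 43.43 and 44.62 FPKM with DMSO, far below it (log2 fold change -0.65, SE 0.10, edgeR adjusted p = 0.00203). STK11, the kinase that activates AMPK, AKT2 and TBC1D7, the remaining subunit of the TSC complex, had -0.25, -0.17 and -0.30 (edgeR adjusted p = 0.0226, 0.0455 and 0.0488). Those 3 calls were weak: STK11 lost it without WD6305 1, WD6305 3, DMSO 1 or DMSO 2 (0.0567 to 0.105), AKT2 without the same libraries (0.101 to 0.156) and TBC1D7 without any 1 library (0.0661 to 0.174). TBC1D7 was also lost without both WD6305 1 and DMSO 3 (0.0640).

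Of 13 substrates and outputs of mTORC1, with the calcium branch of TFEB control among them, 4 were lower and 0 higher. The lower share was 30.8%, beside 11.2% of all tested genes and 16.1% of those at a mean of at least 1 FPKM. RPS6KB2, an S6 kinase, had 9.38, 9.63 and 8.80 FPKM with WD6305 and 12.44, 11.77 and 11.34 FPKM with DMSO (log2 fold change -0.33, SE 0.06, edgeR adjusted p = 0.00637), whereas RPS6KB1 had -0.05 (0.827). PPP3CB, a catalytic subunit of calcineurin, which dephosphorylates TFEB, was lower by -0.33 on the log2 scale (edgeR adjusted p = 0.0118, or 0.0510 without WD6305 2). SREBF1, the lipid synthesis factor, and LARP1, which binds messages for ribosomal proteins, had -0.25 and -0.22 (edgeR adjusted p = 0.0186 and 0.0110). SREBF1 lost its call without WD6305 1, WD6305 3 or DMSO 2 (0.0697, 0.0852 and 0.0587) and LARP1 without WD6305 3 (0.0525). The translation repressors EIF4EBP1 and EIF4EBP2 were at 0.06 and 0.01 (edgeR adjusted p = 0.511 and 0.901), and MCOLN1, the lysosomal calcium channel, at 0.24 (0.0664). Of 4 genes particular to mTORC2, 0 passed, beside 23.4% of all tested genes. RICTOR had 2.18, 2.07 and 1.99 FPKM with WD6305 and 1.38, 1.46 and 2.10 FPKM with DMSO. Only DMSO 3 lay among the WD6305 values (log2 fold change 0.36, SE 0.14, edgeR adjusted p = 0.0975).

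**Figure D5:**
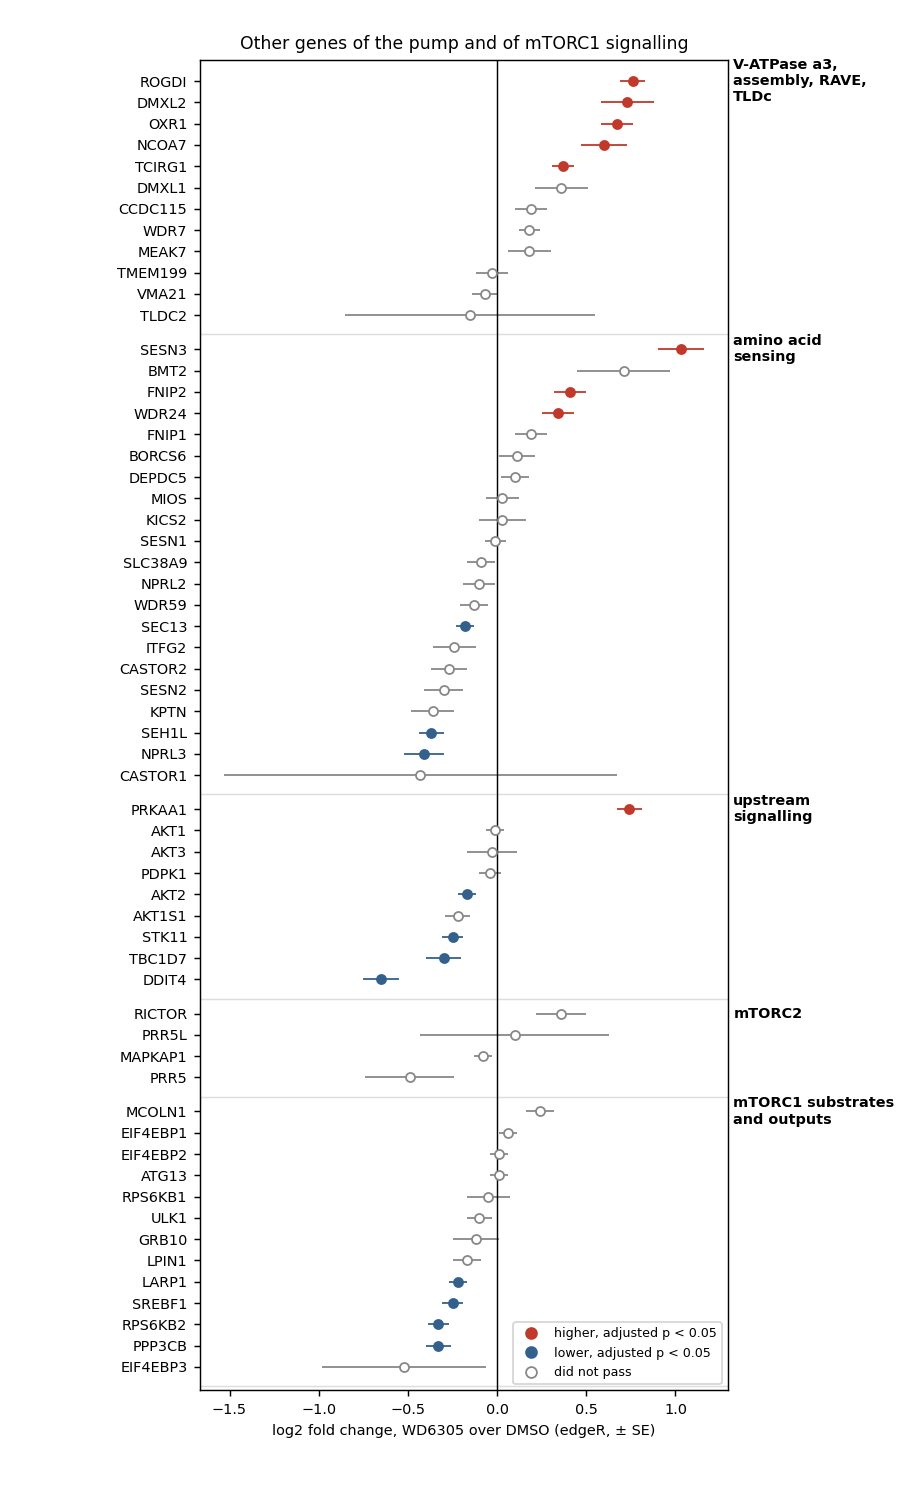
Log2 fold change (WD6305 over DMSO, x axis, ± SE from edgeR) of 59 of the 61 tested genes that act on the pump or on mTORC1 and are not in the named set, by role. SESN3 lies farthest to the right at 1.03 and, among the called genes, DDIT4 farthest to the left at -0.65.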

How the data were processed

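Poly(A) RNA of 6 libraries was sequenced as read pairs after a strand-marking preparation. The submitters' processing notes name HISAT2, StringTie, fastp and edgeR with build GRCh38; settings and versions: not given in the sources used here. Estimated counts were deposited by the authors as whole numbers, which pile up at 4 (1071 to 1176 genes with a count of 4 per library, against 553 to 636 with a count of 3). FPKM, also deposited, scale each gene by its length and by the library's depth, per the file headers. Here levels are the deposited FPKM and fold changes come from the counts, already whole, so rounding changed nothing. Genes were filtered with filterByExpr (18138 left), scaled with TMM (factors 0.987 to 1.02) and tested with edgeR 4.0.16 under R 4.3.3 (quasi-likelihood, two-sided, Benjamini-Hochberg at 0.05, no replicate block). SE is the log2 fold change over the root of F. DESeq2 1.42.0 and limma 3.58.1 on log2(FPKM + 1) or log2(FPKM + 0.1) were alternatives. The fits were also run on counts simulated with a single dispersion for all genes and no library set apart, unlike these data. That run does not show how often calls here are wrong.

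All genes of the set are named; of the other lists, called genes and TCIRG1 are named by rule and the rest were picked after their values were seen. The counts of the other lists include 2 genes that are not reported here by name. Members and lists were chosen with earlier results of these data known. All 62 listed pathway genes matched by symbol. Lymphoid and erythroid markers had 2 of 5 genes each in the table, summing to at most 0.340 and 0.790 FPKM, and fibroblast markers summed to 4.41 FPKM in WD6305 1 and at most 0.270 FPKM elsewhere. For 3 against 3 libraries an exact two-sided permutation test cannot go below 0.1, so none was used.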

Additional observations from a re-analysis of the deposited data

How the results depend on the processing

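Of the 15 called genes of the set, ATP6V0E1, ATP6AP1, ATP6AP2, LAMTOR2, RRAGC, ATP6V0B and RPTOR kept call and direction under all 17 alternatives, and the other 8 lost the call under at least 1. No called gene of the set changed sign. Of the 22 called pathway genes, 9 kept their call throughout. Counts that moved by over 1.5 times were, for the set, 3 lower with no filter, 5 higher with limma and no filter, and 4 lower with a replicate block. For the pathway lists they were 7 lower with no filter, and 6 higher and 7 lower with limma and no filter, and over all genes 1368 higher with limma and no filter. Leaving out each library in turn gave 1446 to 2563 higher and 1310 to 2077 lower over all genes, 2 to 10 lower in the set and 4 to 13 lower in the pathway lists; the lowest totals over all genes were without WD6305 3. The cause was not tested.

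Same-numbered libraries were not treated as pairs, since the labels name no pairing. The correlations of their deviations from the group mean were -0.18, 0.078 and -0.15 for numbers 1, 2 and 3. WD6305 1 went with DMSO 3 (0.26), the libraries that stood apart. With so few libraries per group, these values cannot show whether the libraries were paired. The replicate block, which uses these numbers, left 1736 higher and 1468 lower over all genes and, in the set, removed 6 calls and added 1.

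The 8 genes of the set that changed sign did not pass in any case. Without 1 library, log2 fold changes ranged from -0.03 to 0.20 for TFEB, -0.05 to 0.09 for ATP6V1A, -0.04 to 0.08 for LAMTOR1, -0.0047 to 0.14 for RRAGA, -0.02 to 0.14 for ATP6V0C and -0.16 to 0.23 for ATP6V1FNB. Without both WD6305 1 and DMSO 3 they were -0.04 for ATP6V1C2, -0.06 for ATP6V0C, -0.02 for RRAGC-DT and -0.29 for ATP6V1FNB. ATP6V1FNB was also at -0.0027 with RLE factors, -0.02 with library sizes alone, and -0.01 with DESeq2, with limma and no filter, and with the replicate block. Low counts limit the divergent transcripts and ATP6V0D2, while ATP6V1C2 is limited by its wide spread within both groups.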

Other observations

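ATP6V0E2-AS1, left out of the set as an antisense transcript, was at 0.54, 0.44 and 0.71 FPKM with WD6305 and at 1.07, 1.08 and 1.39 FPKM with DMSO, with counts of 107 to 168 and 253 to 327 in the same order. The groups did not overlap (log2 fold change -1.04, SE 0.22, edgeR adjusted p = 0.00907). ATP6V0CP3, a pseudogene of the ring subunit gene, was at 1.67, 1.25 and 0.82 FPKM with WD6305 and 1.55, 2.39 and 1.68 FPKM with DMSO, which overlapped (log2 fold change -0.55, SE 0.37, edgeR adjusted p = 0.331). COL1A1, a fibroblast collagen gene, was at 3.48 FPKM in WD6305 1 and between 0.13 and 0.27 FPKM in the other libraries.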
